A study of Mus musculus with 8 samples.

Results

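The regions described here are narrow peaks of H3K9me3, histone H3 trimethylated at lysine 9, that were called in mouse mesenchymal stem cells lacking the demethylase KDM4B and that lie far from the sites KDM4B occupied in cells that have it. They were selected from the peak lists by 4 conditions: narrower than 800 bp, on an autosome, overlapping no H3K9me3 peak of wild-type (WT) cells, and more than 10 kb from every KDM4B peak of WT cells. The conditions left 32231 of the 55306 H3K9me3 peaks of knockout (KO) cells, and these are called distal KO-only peaks below. The values that chose them are therefore the KO and WT H3K9me3 calls, the peak width and the distance to KDM4B, and statements on these describe the selection.

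The cells were primary bone marrow mesenchymal stem cells, which can form bone, cartilage and fat. KO cells came from mice of the genotype Prx1Cre; Kdm4bf/f and WT cells from Prx1Cre; Kdm4bw/w, so both genotypes carry the Prx1Cre transgene, whose Cre is driven by a limb mesenchyme promoter, and the deletion depends on that promoter having been active in a cell. All cells were placed in osteogenic induction for 4 hours and crosslinked with 10 mM DTBP and then formaldehyde before chromatin immunoprecipitation sequencing. Each antibody and genotype had 1 library, without a replicate check, so no difference between genotypes was tested. The intervals given cover counting error only. They take each peak as independent, although the peaks came in groups, so they are likely too narrow. The sources used here do not say the age or sex of the mice, or how many stood behind a library.

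KDM4B removes methyl groups from H3K9, the residue that methyltransferases such as SETDB1 and SUV39H1 trimethylate. H3K9me3 is bound by HP1 proteins, is a hallmark of repressed chromatin, and is best known from pericentromeric satellites, retrotransposons and clusters of zinc finger genes. Positions are in mouse build mm9, with starts as deposited. Gene annotation and sequence of that build were not used here, so regions are named by position and no sequence is printed.

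Distal KO-only peaks were the larger share of the narrow H3K9me3 peaks found in KO cells alone. Of the 55158 autosomal KO peaks, 54390 were narrower than 800 bp, and 54125 of these overlapped no WT peak. Of those 54125, 32231, or 59.5%, lay more than 10 kb from KDM4B and 21894 lay within 10 kb. For comparison, 87.0% of the autosomal span and 85.7% of the autosomal WT H3K9me3 peaks, by midpoint, lay more than 10 kb from KDM4B. Absence from the WT list was the rule rather than the exception in this comparison: 99.4% of all autosomal KO peaks, whatever their width or distance, overlapped no WT peak. That share was used by the selection and nothing is read from it. The width condition removed 294 further distal peaks of 800 bp or more, and 225 narrow distal KO peaks were left out because they overlapped a WT peak.

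Peaks on either side of the limits differed little in the values that set them. The nearest distal KO-only peak to KDM4B, on chromosome 4 from 116972367 to 116972704, lay 10008 bp from it, and peaks on chromosomes 16 and 5 lay just outside the limit at 9999 bp. The widest one kept, on chromosome 15 from 98606501 to 98607299, measured 798 bp. It was followed by peaks of 797 bp on chromosome 10 from 127156351, chromosome 5 from 8622456 and chromosome 8 from 72963046. The narrowest peak removed by width, on chromosome 11 from 5965885 to 5966685, measured 800 bp.

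The distal KO-only peaks were short. Their median width was 246 bp, with quartiles of 202 and 326 bp, and together they covered 9.21 Mb. The smallest width in the list, 199 bp, was that of 7459 of them, or 23.1% (95% exact binomial interval 22.7 to 23.6%). Narrow KO-only peaks within 10 kb of KDM4B had a median of 266 bp with 18.3% (17.8 to 18.8%) at the smallest width, and those overlapping a KDM4B peak had a median of 298 bp with 13.0% (12.2 to 13.7%). Narrow KO peaks that did overlap a WT peak were wider again, with a median of 364 bp over 265 peaks. Distal peaks were thus the narrowest of these sets. Among the distal peaks themselves width differed little, from a median of 250 bp at 10 to 25 kb to 239 bp beyond 250 kb from KDM4B. A peak of the smallest width is the shortest call in the deposited list, and no height or score accompanied these calls.

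The distance from KDM4B ran from just over 10 kb to several Mb. The median was 46.4 kb, with quartiles of 22.9 and 103 kb, and the maximum was 3528 kb. By class, 9010 peaks (28.0%) lay at 10 to 25 kb, 7923 (24.6%) at 25 to 50 kb, 7003 (21.7%) at 50 to 100 kb, 5463 (16.9%) at 100 to 250 kb and 2832 (8.79%) beyond 250 kb. These counts have to be read against the sequence available, because 87.0% of the autosomal span lay more than 10 kb from KDM4B and 38.1% lay beyond 250 kb. Relative to that length, distal KO-only peaks occurred at 15.4 per Mb, and narrow KO-only peaks within 10 kb of KDM4B at 69.9 per Mb.

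Density was lower with each step of distance, without a break at 10 kb. Counted by their midpoints, narrow KO-only peaks numbered 41.5 per Mb (95% exact Poisson interval 40.3 to 42.7) at 5 to 10 kb from KDM4B, and 37.4 (36.7 to 38.2) at 10 to 25 kb, just past the limit. From there the density was 32.3 per Mb at 25 to 50 kb, 25.001 at 50 to 100 kb, 13.5 at 100 to 250 kb and 3.09 (2.98 to 3.21) beyond 250 kb. The density at 10 to 25 kb was therefore 12.1 times that beyond 250 kb, and it was the higher of both on 19 of 19 autosomes, from 6.87 times on chromosome 6 to 25.8 times on chromosome 17. Inside KDM4B peaks the density was 294 per Mb, 7.85 times that at 10 to 25 kb. Windows of 100 kb that held a peak of any list made up 133 of the 916 Mb beyond 250 kb, and 234 of the 242 Mb at 10 to 25 kb. Counted only over those windows, the ratio of 12.1 was 1.82. Such windows are in part defined by the peaks being counted.

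H3K9me3 peaks of WT cells did not show this slope under either count. The 781 autosomal WT peaks numbered 0.343 per Mb (0.273 to 0.425) at 10 to 25 kb from KDM4B and 0.355 per Mb (0.317 to 0.395) beyond 250 kb, a ratio of 0.966. Over only the 100 kb windows with a peak of any list, which WT peaks also help to define, the WT density was higher far away, 0.355 per Mb at 10 to 25 kb and 2.44 beyond 250 kb. Beyond 250 kb lay 41.6% of the WT peaks and 38.1% of the territory, against 5.24% of all narrow autosomal KO-only peaks. Autosomal KO peaks that overlapped a WT peak, which share WT places by definition, numbered 0.144 per Mb at 10 to 25 kb and 0.146 beyond 250 kb. The WT and KO lists thus differed, through the KO-only peaks, in their placement relative to KDM4B as well as in length. With 1 library each this difference was not tested, and neither the depth nor the threshold behind either list is known.

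**Figure D1:**
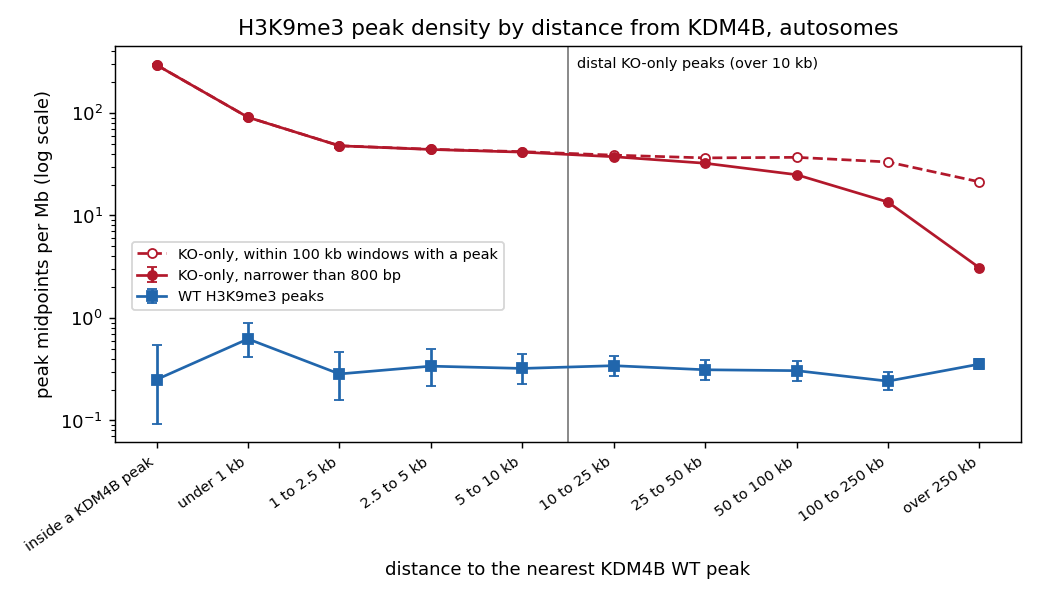
Number of H3K9me3 peak midpoints per Mb of autosomal sequence (log axis) by distance to the nearest KDM4B peak of WT cells; bars are 95% exact Poisson intervals, and open circles count only 100 kb windows that hold a peak of any list. Narrow KO-only peaks go from 41.5 to 37.4 per Mb across the 10 kb line and to 3.09 per Mb beyond 250 kb, whereas WT peaks, over the whole territory, stay between 0.242 and 0.625 per Mb.

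At the scale of 1 Mb, distal KO-only peaks lay in the same windows as KDM4B although each was more than 10 kb from any KDM4B peak. Of the 2419 autosomal windows, 1939, or 80.2%, held at least 1 distal KO-only peak, with a median of 5 per window. In the 584 windows with 0 KDM4B peaks there were 895 distal KO-only peaks, or 1.54 per Mb of sequence more than 10 kb from KDM4B, and 314 of those windows held none. The density in such sequence was 5.93 per Mb in windows with 1 to 5 KDM4B peaks, 13.2 with 6 to 10, 22.0 with 11 to 20, 41.2 with 21 to 50 and 67.4 with over 50. All 106 windows in the last class held at least 1. The order of the classes was the same for the density and for the number per window, whose median went from 0 to 31.5.

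Over the 2419 windows, the number of distal KO-only peaks had a rank correlation (Spearman's rho) of 0.675 with the number of KDM4B peaks. With the number of narrow KO-only peaks within 10 kb of KDM4B rho was 0.777, and with the number of WT H3K9me3 peaks it was 0.164. These are descriptions. Mappability and base composition of the windows, common to the first pair, were not measured, and their part was not tested. The second pair also comes from 1 library, and neighbouring windows are not independent. Windows with 0 KDM4B peaks made up 24.1% of the windows and held 2.78% of the distal KO-only peaks, but 28.6% of the WT H3K9me3 peaks.

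The peaks were concentrated in few windows. The upper 50% of them lay in 232 windows, or 9.59% of all. Chromosome 4 from 140000001 to 141000000 held the most, 178, together with 41 KDM4B peaks and 81 narrow KO-only peaks within 10 kb of those. A run of adjacent windows on chromosome 8 followed closely, with 168 from 122000001, 141 from 123000001 and 140 from 124000001. On chromosome 4 the windows from 151000001 and from 137000001 held 161 and 122. The other windows among the 10 densest were on chromosome 11 from 117000001 with 145, chromosome 2 from 31000001 with 129, and chromosomes 15 from 78000001 and 17 from 27000001 with 125 each. All 10 contained between 20 and 70 KDM4B peaks, and of these 10 windows 8 held 0 WT H3K9me3 peaks while 2 held 1 each.

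A few windows went against this pattern and held many distal KO-only peaks with 0 KDM4B peaks. The window on chromosome 4 from 152000001 to 153000000 held 54 of them and 26 WT H3K9me3 peaks, next to the dense window that starts at 151000001. Chromosome 4 from 127000001 held 37, with 3 WT peaks, and chromosome 1 from 191000001 held 35, with 1 WT peak.

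The autosomes differed 4.80-fold in density. Chromosome 11 carried 25.1 distal KO-only peaks per Mb (24.2 to 26.0), followed by chromosome 4 with 20.3, chromosome 5 with 19.3, chromosome 17 with 18.1 and chromosome 15 with 17.8. Chromosome 3 carried 5.23 per Mb (4.87 to 5.60), and chromosomes 13, 14 and 16 carried 7.17, 7.69 and 8.09. The counting intervals of chromosomes 17 and 15, 17.2 to 18.96 and 17.0 to 18.7, overlapped. KDM4B density ranged less widely, 2.45-fold, from 8.94 to 21.9 peaks per Mb, and ordered the chromosomes differently. Per KDM4B peak, distal KO-only peaks numbered 1.53 on chromosome 4, 1.49 on chromosome 8 and 1.45 on chromosome 5, but 0.492 on chromosome 3 and 0.596 on chromosome 13. Chromosome 19 had nearly the KDM4B density of chromosome 11, 21.6 against 21.9 per Mb, with 16.2 distal KO-only peaks per Mb. Measured only over sequence more than 10 kb from KDM4B, the range was 5.84 per Mb on chromosome 3 to 31.4 on chromosome 11.

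The share of narrow KO-only peaks that were distal also varied, around a median of 59.2% over the 19 autosomes. It was lowest on chromosome 10, at 47.0% (45.1 to 48.9%), and highest on chromosome 4, at 66.6% (65.3 to 68.0%).

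**Figure D2:**
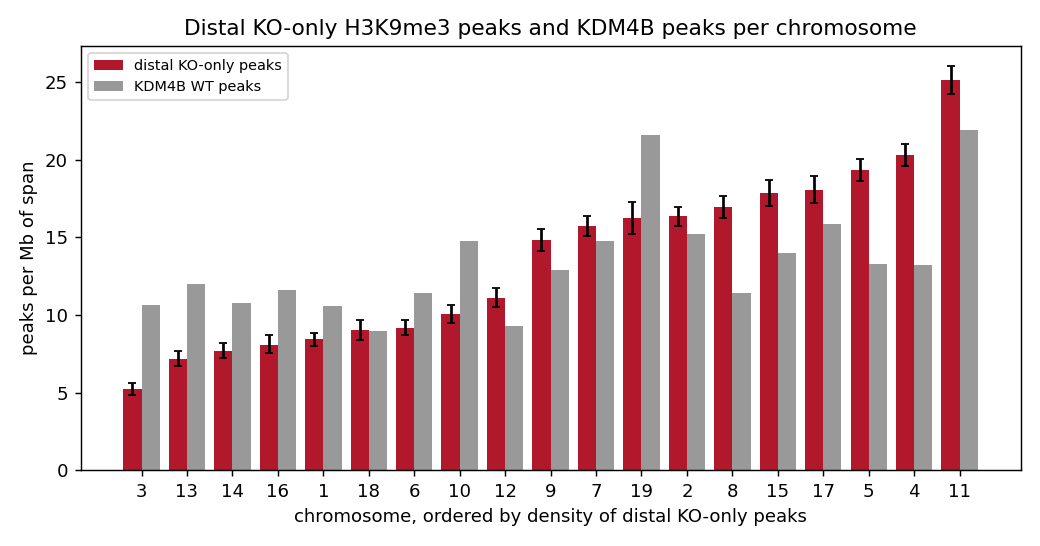
Distal KO-only H3K9me3 peaks (red, bars with 95% exact Poisson intervals) and KDM4B peaks of WT cells (grey) per Mb of each autosome, ordered by the former. The distal peaks range from 5.23 per Mb on chromosome 3 to 25.1 on chromosome 11, and chromosomes 4, 5 and 8 carry the most of them per KDM4B peak.

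Along the chromosomes, distal KO-only peaks were most frequent toward the highest coordinates. Assembled mouse autosomes begin at the centromere, so the highest coordinates are the end far from it. Each span was divided into 5 equal segments, numbered from the lowest positions. Segment 5 held 11469 peaks, or 35.6% (35.1 to 36.1%), at 23.9 per Mb, and segment 1 held 4702, or 14.6%, at 9.78 per Mb. The ratio of segment 5 to segment 1 was 2.44 for distal KO-only peaks, 2.02 for narrow KO-only peaks within 10 kb of KDM4B, 1.56 for KDM4B peaks and 0.893 for WT H3K9me3 peaks. WT H3K9me3 peaks were uneven along the segments, with 252, 64, 150, 90 and 225 from segment 1 to segment 5. Counted only over sequence more than 10 kb from KDM4B, the ratio of segment 5 to segment 1 was 2.60 for the distal peaks. On 16 of 19 autosomes segment 5 held more than segment 1, and on 9 it held the most of all 5. Chromosome 4 had 2035 in segment 5 and 87 in segment 1, and without chromosome 4 the ratio was 2.04. On the other 10 autosomes another segment held the most. Chromosome 17 had 785 in segment 2 and 187 in segment 5, chromosome 13 had 330 in segment 3 and 119 in segment 5, and chromosome 10 had 485 in segment 3 and 184 in segment 5. Segment 1 held more than segment 5 on chromosomes 14, 16 and 19, with 187 against 112, 301 against 196 and 369 against 146, and on chromosomes 16 and 19 it held the most of all 5.

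**Figure D3:**
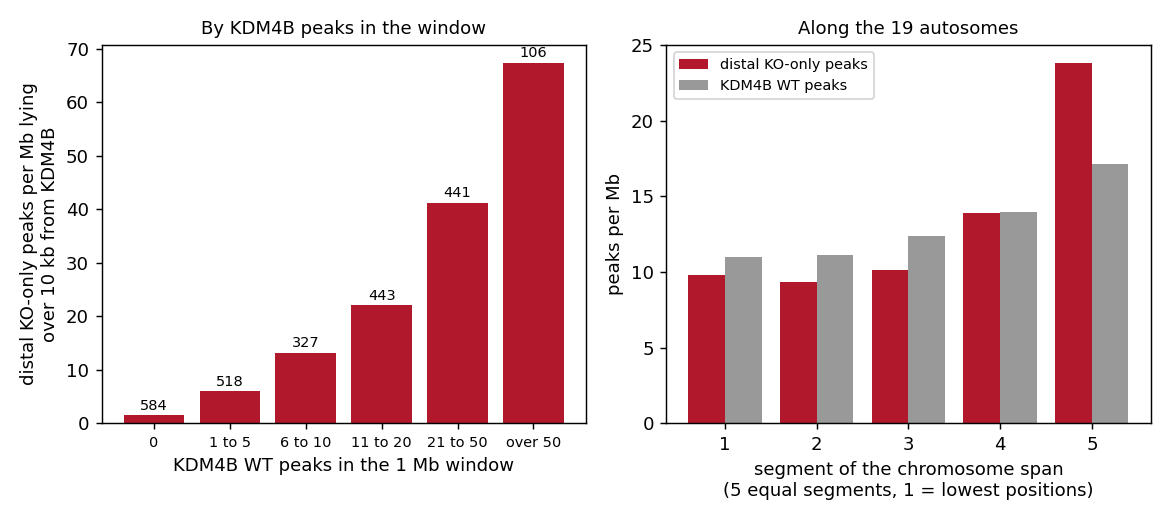
Left, distal KO-only peaks per Mb of sequence more than 10 kb from KDM4B, in 1 Mb windows grouped by their number of KDM4B peaks, with the number of windows above each bar; the values go from 1.54 to 67.4. Right, distal KO-only peaks (red) and KDM4B peaks (grey) per Mb in each of 5 equal segments of the autosomal spans, pooled over 19 autosomes; segment 5 stands at 23.9 against 9.78 per Mb in segment 1.

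Distal KO-only peaks came in groups. The median gap to the nearest other distal KO-only peak was 2575 bp, 34.0% (33.5 to 34.5%) had another within 1 kb, and 62.0% (61.4 to 62.5%) within 5 kb. The share within 5 kb was 37.2% when KO peaks within 1 kb of each other were first merged, and 47.1% among peaks at or above the median KO width. The 800 bp limit was applied again after merging, so tight groups merged to 800 bp or more were left out of the 37.2%. Peaks within 10 kb of KDM4B were packed more closely, with a median gap of 1333 bp and 71.8% (71.2 to 72.4%) within 5 kb of another of their kind. Fewer distal peaks had a close neighbour far from KDM4B: 66.0% at 10 to 25 kb and 67.1% at 25 to 50 kb had another within 5 kb, but 54.5% at 100 to 250 kb and 45.4% (43.5 to 47.2%) beyond 250 kb. Density differed as well, from 37.4 per Mb at 10 to 25 kb to 3.09 beyond 250 kb. It was 69.9 per Mb within 10 kb of KDM4B against 15.4 for all distal peaks. Density alone brings neighbours closer, and its part in these differences was not tested. Peaks with no other within 100 kb were 5.26% of all distal peaks and 16.7% of those beyond 250 kb. The most frequent gaps between neighbours were 200 to 300 bp, with 1025 gaps, and 100 to 200 bp, with 1009.

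Joined across gaps of up to 5 kb, the 32231 peaks formed 18377 groups, of which 12259 were single peaks. Groups of 10 or more numbered 170, held 2213 peaks, or 6.87% of all, and were present on each of the 19 autosomes, with 26 on chromosome 11, 22 on chromosome 4 and 19 each on chromosomes 5 and 8. Their median span was 20.97 kb and a median of 18.4% of it was covered by distal KO-only peaks, a share that leaves out wider peaks by the selection. The nearest KDM4B peak lay at a median of 24.2 kb from these large groups and 56.6 kb from single peaks. A larger group reaches nearer to its surroundings by its size alone, and the part of this in the difference was not tested.

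**Figure D4:**
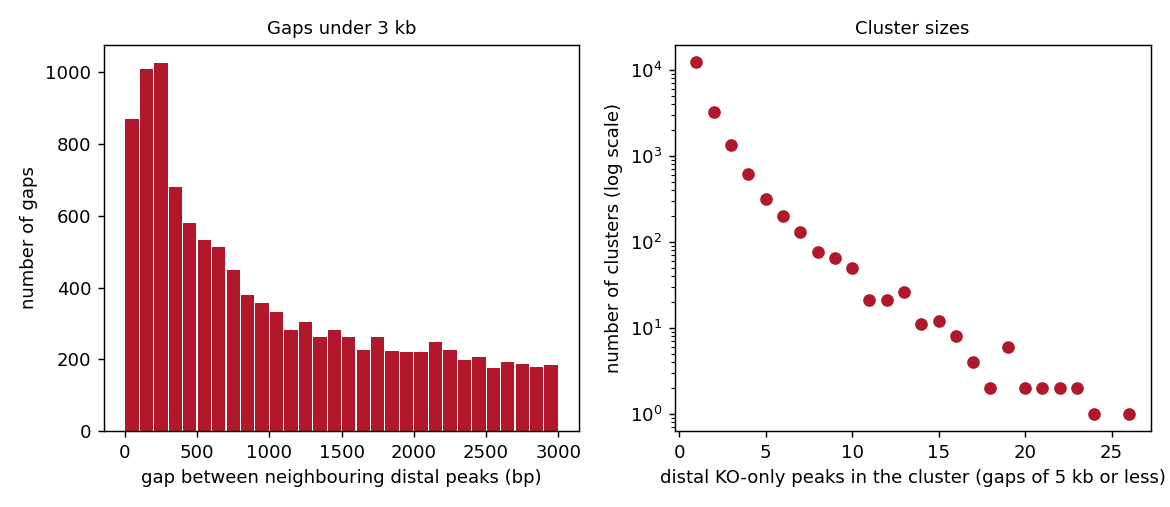
Left, number of gaps of each length (bins of 100 bp) between neighbouring distal KO-only peaks, for gaps under 3 kb, highest at 200 to 300 bp with 1025. Right, number of groups (log axis) by how many distal KO-only peaks they hold when gaps of up to 5 kb are joined, from 12259 single peaks to 1 group of 26.

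The group with most peaks was on chromosome 8 from 124802197 to 124848592, where 26 peaks were spread over 46.4 kb and covered 7.56 kb. Its nearest KDM4B peak lay 13.5 kb away. The next, on chromosome 4 from 137253975 to 137293995, held 24 peaks over 40.0 kb with 0 KDM4B peaks within 50 kb and the nearest at 55.9 kb. A group on chromosome 11 from 59986628 to 60022962 held 23 peaks over 36.3 kb, 10.6 kb from KDM4B at the closest. On chromosome 17, groups of 22 lay from 25511176 to 25546101 and from 27840226 to 27880486, at 41.5 and 21.6 kb from KDM4B. Groups of 21 were found on chromosome 18 and on chromosome 11 from 119858208 to 119884658. Groups of 20 were on chromosome 2 from 179908150 to 179932733, at 58.9 kb from KDM4B, and on chromosome 12 from 109440454 to 109473852, at 22.1 kb. In each of these 9 groups every KO H3K9me3 peak within the span was a distal KO-only peak, and 0 WT peaks lay within 10 kb.

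The exception among the 10 largest was on chromosome 14 from 70057359 to 70090308. It held 23 distal KO-only peaks together with 5 KO peaks that did not meet the conditions, and 14 WT H3K9me3 peaks lay within it or within 10 kb. Here the distal peaks stood between regions marked in WT cells too. In the wider neighbourhood from 69967881 to 70098911, 31 distal KO-only peaks lay within 10 kb of WT peaks, the largest such collection.

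**Figure D5:**
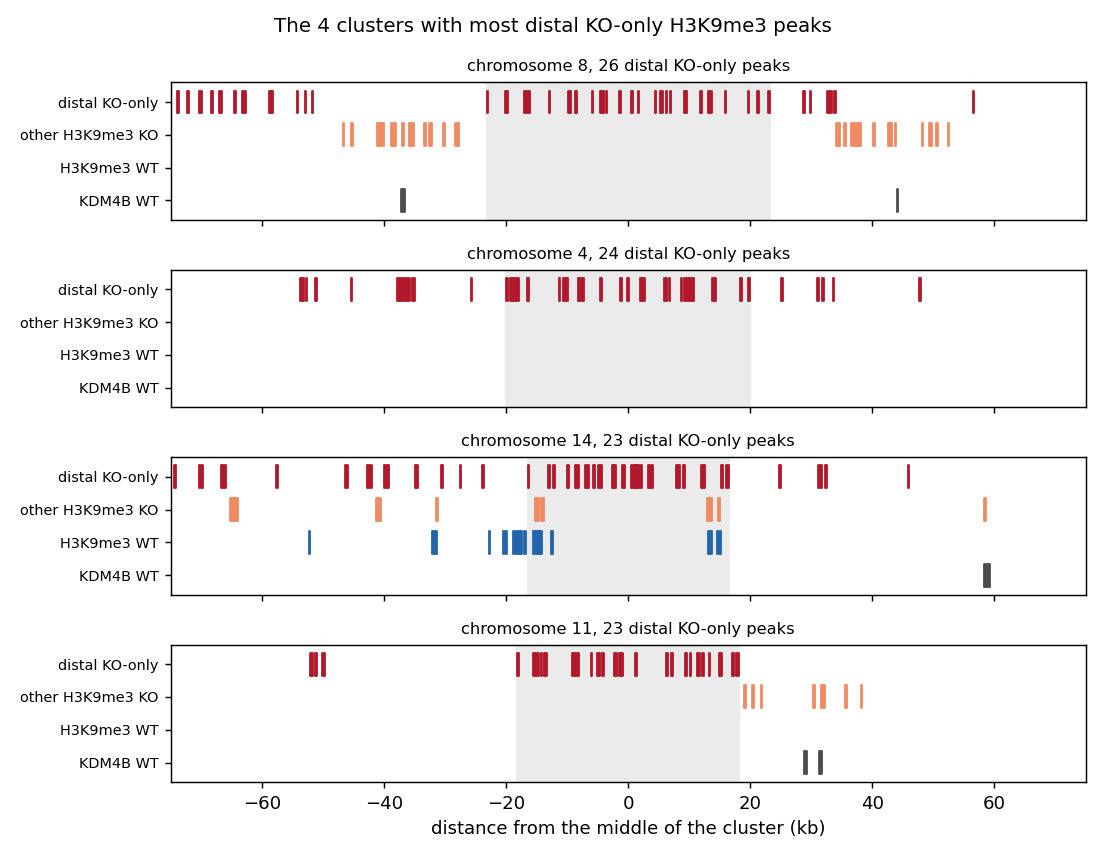
The 4 groups with most distal KO-only peaks (26, 24, 23 and 23 peaks; grey shading marks the group), drawn to scale over 75 kb on either side of the middle of each, except that a peak is never drawn narrower than a fixed minimum. Rows show distal KO-only peaks, other H3K9me3 peaks of KO cells, H3K9me3 peaks of WT cells and KDM4B peaks of WT cells; WT H3K9me3 peaks appear only in the chromosome 14 map, and the chromosome 4 map has no KDM4B peak.

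Few distal KO-only peaks formed a continuous string with H3K9me3 at KDM4B sites. When all autosomal KO peaks were joined across gaps of up to 5 kb, 809 of the 32231, or 2.51% (2.34 to 2.69%), were in a string that reached a KO peak overlapping KDM4B. A further condition, a string containing any KO peak within 10 kb of KDM4B, was met by 2443, or 7.58% (7.29 to 7.87%). Strings made of distal KO-only peaks alone held 28839, or 89.5% (89.1 to 89.8%), strings with a KO peak of 800 bp or more held 1297, or 4.02%, and strings with a KO peak that overlapped WT held 89, or 0.276%. Since every distal peak is more than 10 kb from KDM4B, reaching a KO peak that overlaps KDM4B needs intervening or very wide peaks. A KO peak that is only within 10 kb of KDM4B can be joined directly.

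The KDM4B sites next to distal KO-only peaks carried H3K9me3 in KO cells somewhat more often than other KDM4B sites. The KDM4B peaks that were nearest to at least 1 distal KO-only peak numbered 7101 of 31556 autosomal ones, and 2216 of them, or 31.2% (30.1 to 32.3%), overlapped a KO H3K9me3 peak. Of the 24455 others, 5057, or 20.7% (20.2 to 21.2%), did. Their median widths were 495 and 514 bp. Regional density differs between the sets, since KDM4B peaks in tight clusters are seldom the nearest to a distal peak, and its part in this difference was not tested.

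Stretches between consecutive KDM4B peaks differed in whether they held any distal KO-only peak. Of 10433 such stretches longer than 20 kb, 5300, or 50.8% (49.8 to 51.8%), held at least 1. The share was 25.6% for stretches of 20 to 50 kb, 51.9% for 50 to 100 kb, 70.3% for 100 to 250 kb, 83.2% for 250 kb to 1 Mb and 88.9% for longer ones. Density in the part more than 10 kb from both ends went the other way, from 47.5 per Mb in stretches of 20 to 50 kb to 3.68 per Mb in those over 1 Mb. The most peaks in a single stretch, 130, lay on chromosome 5 between KDM4B peaks at 119110043 and 120961187, followed by 128 on chromosome 4 between 139179301 and 140122690, over 943 kb. At the other extreme, 3.80 Mb without KDM4B on chromosome 7 from 59242630 to 63039764 and 3.69 Mb on chromosome 5 from 54417154 to 58106167 held 0 distal KO-only peaks.

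Of the 10 distal KO-only peaks farthest from KDM4B, 3 had no other within 100 kb and 4 had another within 5 kb. The farthest were a pair on chromosome 8, from 101939312 to 101939635 and from 101940184 to 101940507, which stood 0.549 kb apart and 3.53 Mb from KDM4B, with a WT H3K9me3 peak 0.247 Mb away. A peak on chromosome 2 from 98124114 to 98124313 followed at 3.39 Mb, 2965 kb from the next distal peak. A pair on chromosome 14 from 112075165 and 112080251 stood at 3.27 and 3.26 Mb, and a single peak on chromosome 6 from 76447993 at 3.25 Mb. Those on chromosome 5 from 12384207, 12354997 and 12928823 lay at 3.22, 3.19 and 3.01 Mb, and the last of the 10, on chromosome 14 from 109311514, at 2.87 Mb. Of these 10 peaks, 3 had the smallest width of 199 bp and the widest measured 442 bp.

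Distal KO-only peaks were also remote from H3K9me3 of WT cells, although the selection asked only that the calls not overlap. Their median distance to a WT peak was 1.64 Mb, against 1.72 Mb for narrow KO-only peaks near KDM4B. Within 10 kb of a WT peak lay 248, or 0.769% (0.677 to 0.871%), in 107 places when joined across 100 kb, and within 100 kb lay 1731, or 5.37%. After the chromosome 14 region, the largest of those places was on chromosome 4 between 152668513 and 152856075, with 12 distal KO-only peaks and 13 WT peaks in it or within 10 kb. The WT list is short, so a large distance to it is common to every class of KO peaks.

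The selection did not use the lists of total histone H3 or of the KDM4B antibody in KO cells, and few KO-only peaks of either kind lay near them. None of the 32231 distal KO-only peaks overlapped any of the 38 H3 peaks of WT, the 28 H3 peaks of KO or the 35 KDM4B peaks of KO cells, and a count of 0 allows a share of up to 0.00931%. Within 10 kb of such a peak lay 8. They comprised 3 on chromosome 4 between 118215201 and 118227918 and single peaks on chromosomes 1, 9 and 11 and at 2 places on chromosome 17. The one on chromosome 17 from 39983838 to 39984050 lay 0.147 kb from a KDM4B peak of KO cells, 0.448 kb from an H3 peak of KO and 0.066 kb from an H3K9me3 peak of WT cells. Of the 21894 narrow KO-only peaks within 10 kb of KDM4B, 0 likewise overlapped any of these lists and 1 lay within 10 kb of each, so the lack of overlap is not particular to the distal peaks. These lists are short and have room for few overlaps.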

How the data were processed

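Peaks of KDM4B, H3K9me3 and H3, 1 library per genotype, were analysed as deposited; the 2 input samples were not analysed here. The submitters' processing notes name Bowtie, SAMtools, MACS (KDM4B) and MACS2 (others), and the builds mm9 and hg19. The authors' lists give positions in bp and, in 5 of 6 files, no score; no source used here says whether starts count from 0 or 1. Depth is given only for H3 in WT, 40420466 tags after filtering and 45099322 in its control, per the file headers (MACS2 2.1.4, q-value threshold 0.05). Other thresholds, and any use of the yeast spike-in, are not given there, and a longer list can follow from any of them.

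The lists are in mm9 and the gene annotation at hand was of GRCm38.p6, so that annotation was not used. Peaks extend past its last annotated gene on 9 of 21 chromosomes. The planned comparisons by gene, gene list, promoter and GC content were not run. The members and lists were chosen with earlier results of these data known. Regions named by plan are the 10 densest 1 Mb windows, the 10 largest groups and the 10 peaks farthest from KDM4B. The widest peaks and those just inside or outside the width and distance limits were also planned. Other regions were picked after their values were seen.

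Overlap meant 1 shared bp, distances ran between peak edges, and densities used midpoints over every 100th position of each autosome's span, taken from its lowest to its highest peak in the 6 lists. Intervals are exact binomial (Clopper-Pearson) or Poisson, at 95%; a count of 0 is read as up to 3 counts. Python 3.11.15, numpy 2.4.6, scipy 1.17.1 and pandas 2.3.3 were used. Distances were the same as those of bedtools 2.31.1 for 55301 of 55301 peaks, and were tested on simulated data. Alternatives were other limits of distance, width and WT proximity, and merging of KO peaks within 1 kb before the conditions were applied.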

Additional observations from a re-analysis of the deposited data

Results flagged for a closer look

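The X chromosome, outside the selection, had 30 KO H3K9me3 peaks that met every other condition, or 0.186 per Mb (95% exact Poisson interval 0.125 to 0.265), below the lowest autosome at 5.23 per Mb; it was singled out because these peaks entered no comparison. In all, the X had 96 KO and 112 WT H3K9me3 peaks, and the Y 47 and 50. Of the 32017 KDM4B peaks of WT cells, 31556 were on autosomes, and those on the X were not counted separately. The mitochondrial sequence, which carries no histones, had 5 KO H3K9me3 peaks and 0 WT peaks, a signal outside the autosomal comparisons.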

How the results depend on the processing

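Of 29 recomputed values, 16 stayed within the counting interval or within 1.5 times the count, 13 moved and 0 reversed. A reversal was defined only for the ratios, as a move to the other side of 1, so counts and shares could not reverse. The 32231 peaks became 15298 with a limit of 50 kb from KDM4B and 14777 at or above the median width of KO peaks, 256 bp. The share with another within 5 kb, 62.0%, was 63.1% with a limit of 5 kb from KDM4B, 56.4% with 50 kb, 47.1% at or above the median width, 37.2% after merging KO peaks within 1 kb and 57.3% without the smallest width. The density ratio between 10 to 25 kb and beyond 250 kb, 12.1, was 13.7 at or above the median width, 10.3 after merging and 1.82 over 100 kb windows with a peak of any list. The ratio of segment 5 to segment 1 of the chromosomes, 2.44, was 2.54 with a limit of 50 kb and 2.04 without chromosome 4. Overlap with the H3 and KDM4B KO lists went from 0 to 8 when counted within 10 kb. Merging and stricter widths leave fewer peaks by construction. After merging, the 800 bp limit was applied again, so merged stretches of 800 bp or more were left out of the merged values. Otherwise the cause was not tested. The alternatives without the smallest width, over 100 kb windows, without chromosome 4 and of both density ratios were chosen after seeing the data. Shares in gene bodies, shares at promoters and GC content, with their alternatives, were not run. No paired analysis was possible because each group has 1 library. Without scores or depth, weak and strong calls could not be told apart.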
